A study of Bos grunniens and Bos grunniens x Bos taurus with 2 samples.

Results

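The spermatogonial stem cell type (SSC) of the yak testis comprised 84 cells, chosen by the cell type that the study had given to each barcode of its germ cells. They were 84 of 11991 yak cells and of 20921 cells in the whole series. Droplet-based single-cell sequencing was carried out on the testis of 1 sexually mature yak, and another library came from the testis of 1 cattle-yak, the hybrid of cattle and yak. The study had typed 1127 yak germ cells, namely 84 SSC, 486 spermatogonia (SPG), 72 early spermatocytes (Early-SPC), 261 late spermatocytes (Late-SPC) and 224 spermatids (SPT). The labels name no treatment and no genetic change, and each library is 1 animal, so no difference between groups has a replicate check. The study had formed the types by clustering the expression of these same cells, and differences between SSC and SPG therefore describe the types and are no test of them.

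Each of the 84 SSC barcodes had a deposited cell, and none was lost to the limits on genes, unique molecular identifiers (UMIs) and mitochondrial share. Their summed profile held 153082 UMIs, and a single SSC cell held a median of 1605 UMIs (666 to 3827) and of 802 genes. SPG cells were shallower, with a median of 979.5 UMIs and 618792 UMIs in all. At least 1 UMI was counted in SSC cells for 9890 of 26961 annotated genes, and 50 or more for 326. The median mitochondrial share was 14.0% in SSC and 14.4% in SPG cells. A total of 24 barcodes occurred in both libraries, none of them an SSC cell.

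In the testis, spermatogonial stem cells lie on the basement membrane of the seminiferous tubule, where they either renew themselves or give rise to spermatogonia that divide, enter meiosis as spermatocytes and mature to spermatids. They are usually recognised by regulators of the undifferentiated state such as *GFRA1*, *ETV5*, *ID4*, *ZBTB16* and *PIWIL4*, few of which are abundant as RNA. Endothelial cells line the blood vessels outside the tubules, are held together by adhesion molecules such as *PECAM1* and *CDH5*, and differ between arteries, veins and capillaries.

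Expression was taken as the summed UMIs of a group of cells, scaled to a total of 1000000 (CPM), with an exact Poisson 95% interval that covers counting error only. The same holds for the binomial 95% intervals of shares of cells. Cells outside the typed germ cells were clustered anew and named from marker lists, with the suffix -like (EC for endothelial, MC for contractile muscle, T/NK for T and NK lymphocytes). The comparison groups were SPG, 912 EC-like cells (median 4586 UMIs) and 188 of these EC-like cells that formed the sub-cluster with the highest *BMX* level (BMX-rich EC-like, median 5874 UMIs). T/NK-like cells (3741 cells, median 1938 UMIs) gave 1 measure of free RNA from germ cells and endothelium. Whether T/NK-like cells transcribe listed genes such as *PECAM1* themselves was not tested. SPG cells held contractile muscle genes at 4607 CPM and stroma genes at 1227 CPM. T/NK-like cells held 685 CPM and 194 CPM, so the measure is no upper limit for other cells.

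*BMX* encodes a non-receptor tyrosine kinase of the Tec family known from arterial endothelium. It stood at 183 CPM (122 to 264) in SSC cells, from 28 UMIs. SPG cells held 14.5 CPM (6.65 to 27.6), which gave a log2 ratio of 3.65 (2.53 to 4.92). No *BMX* UMI was counted in Early-SPC, so that up to 10.5 CPM remain possible, and the level was 4.20 CPM in Late-SPC and 3.68 CPM in SPT. Among germ cells the gene therefore marked the SSC type. Outside the germ cells, the BMX-rich EC-like sub-cluster, which had been picked for this gene, stood at 233 CPM (207 to 262), and the remaining EC-like cells at 3.99 CPM. The level was 57.7 CPM over all EC-like cells and 1.10 CPM over T/NK-like ones. The SSC interval overlapped that of the BMX-rich EC-like cells and lay above those of all other groups.

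*PTGS2*, the inducible cyclooxygenase that makes the precursor of prostaglandins, had 27 UMIs in SSC cells and 1 in SPG cells. The levels were 176 CPM (116 to 257) and 1.62 CPM, a log2 ratio of 6.77 with a wide counting interval (4.17 to 12.13). It was counted at 126 CPM (102 to 153) in macrophage-like cells, at 33.4 CPM (24.0 to 45.3) in BMX-rich EC-like cells and at 10.5 CPM in all EC-like cells. SSC cells thus had more *PTGS2* than EC-like cells, while their interval overlapped that of macrophage-like cells.

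*FBLN2*, which encodes fibulin-2, a protein of elastic fibres and basement membranes, was the most abundant of the 3 marker genes. It reached 829.6 CPM (692 to 987) in SSC cells, against 87.3 CPM in SPG cells, 93.8 CPM in EC-like cells and 365 CPM (332 to 400.3) in BMX-rich EC-like cells. Stromal-like cells followed at 468 CPM (446 to 491). The log2 ratio of SSC was 3.25 to SPG and 1.19 (0.89 to 1.47) to BMX-rich EC-like cells, and no other yak group had a higher level. The study had selected these 3 genes on these cells, so their levels describe the type and do not test it.

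**Figure D1:**
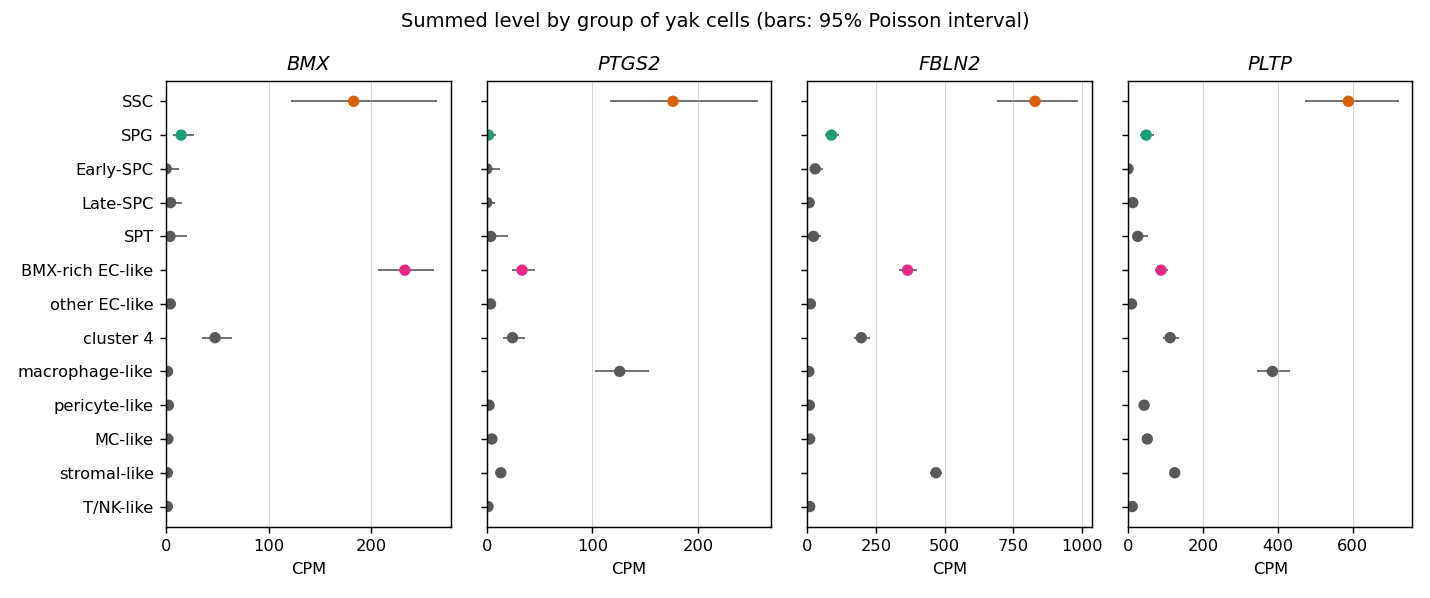
Summed level of genes in CPM, *BMX*, *PTGS2* and *FBLN2* among them, for groups of cells. Points are the level of a group and bars the exact Poisson 95% interval, which covers counting error only. SSC cells lie beside the BMX-rich EC-like cells for *BMX* (183 and 233 CPM) and above every other group for *FBLN2* (829.6 CPM).

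Single cells showed the same markers at different breadth. When each cell was thinned to 1000 UMIs, 77 SSC cells remained and 7 shallower ones were left out. *FBLN2* had a UMI in 54.5% of them (42.8% to 65.9%), *BMX* in 14.3% (7.35% to 24.1%) and *PTGS2* in 13.0%. In 237 SPG cells, with 249 left out, the shares were 5.49%, 0.422% and 0%, the last of which allows up to 1.27%. In T/NK-like cells, the measure of free RNA, they were 0.848%, 0.113% and 0.113%. Without thinning, 63.1% of SSC cells had *FBLN2*, 27.4% *BMX* and 27.4% *PTGS2*. *FBLN2* was therefore seen in most SSC cells, and each of the other markers in a minority at this depth.

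Genome-wide, 2453 genes had at least 50 UMIs over SSC and SPG together and are called tested here, although no significance test was run. A gene was called by size alone, at a log2 ratio of 1 or more either way after 5 CPM were added to each level. By this rule 143 genes (5.83%) were higher in SSC and 479 (19.5%) were lower, and the median log2 ratio of all tested genes was -0.35. These shares are the background for each gene list. SPG cells held more UMIs than SSC cells (618792 against 153082), so a gene could pass the count minimum through SPG cells alone. This favoured genes low in SSC, and the tallies of lower genes are read with this limit.

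The label was then held against genes of undifferentiated spermatogonia. Of the 19 stem cell markers that the study had listed, 13 are in the annotation, and together they stood at 359 CPM (271 to 468) in SSC and 265 CPM (226 to 309) in SPG cells. The log2 ratio of 0.44 (-0.03 to 0.89) included no difference, so none was detectable at this depth. *ID4*, an inhibitor of DNA binding found in stem spermatogonia, gave 50.9% of the SSC sum, at 183 CPM (122 to 264) against 45.2 CPM in SPG cells. *ID4* was higher still in MC-like cells, at 355 CPM. *ZBTB16*, a transcriptional repressor needed for self-renewal, stood at 45.7 CPM in SSC and 105 CPM in SPG cells. *GFRA1*, the GDNF receptor, had 1 UMI in SSC cells (6.53 CPM) and *PIWIL4* 3 UMIs (19.6 CPM, against 24.2 CPM in SPG). *ETV5*, *RET*, *THY1* and *TSPAN33* had no UMI, and a count of 0 allows up to 19.6 CPM in SSC cells. The list as a whole did not set SSC apart from SPG cells.

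*SPOCD1*, which takes part in piRNA-directed DNA methylation and is found in undifferentiated male germ cells, did. It stood at 203 CPM (138 to 287) in SSC cells, from 31 UMIs, and at 72.7 CPM in SPG cells, a log2 ratio of 1.42. SSC had the highest level of 19 yak groups, and EC-like cells stood at 0.573 CPM and T/NK-like cells at 1.10 CPM. A wider list of undifferentiated spermatogonia, with 20 of its 27 genes annotated, stood at 771 CPM in SSC against 429.9 CPM in SPG cells (log2 ratio 0.84, 0.52 to 1.16). It also stood at 675 CPM in EC-like cells, and *TCN2*, a cobalamin carrier, made up 47.5% of the SSC sum while being counted at 534 CPM in EC-like cells. Of the 3 tested genes of this list, *TCN2* and *SPOCD1* were higher and *ZBTB16* lower in SSC, and 9 genes of the list, *PAX7*, *NANOS3* and *SHISA6* among them, had no UMI. At least 1 UMI of *SPOCD1*, *PIWIL4* or *MORC1* was present in 26 of 84 SSC cells (31.0%) and in 48 SPG cells (9.88%), at unequal depth. After thinning to 1000 UMIs the shares were 16.9% (9.31% to 27.1%) in SSC, 8.02% (4.90% to 12.2%) in SPG and 0.170% in T/NK-like cells, with overlapping intervals of SSC and SPG.

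Germ cell genes were present in SSC cells, mostly at a lower level than in SPG cells. The germline list (17 of 22 genes annotated, mainly of the piRNA pathway) summed to 888 CPM (745 to 1051) in SSC and to 1551 CPM (1455 to 1653) in SPG, which is a log2 ratio of -0.80 (-1.07 to -0.54). EC-like cells had 32.5 CPM and T/NK-like cells 71.2 CPM of this list, far below SSC. Of 8 tested genes 0 were higher and 3 lower in SSC, beside 5.83% and 19.5% of all tested genes, with a median log2 ratio of -0.68. *TEX15*, needed for transposon silencing and meiotic repair, was the leading gene at 235 CPM (165 to 326) in SSC and 169.7 CPM in SPG cells. *RNF17*, a Tudor protein of the piRNA pathway, stood at 176 CPM and 223 CPM. These 2 genes lead by their SSC level, an order that favours genes not lower in SSC, and they were close to their SPG level. The 3 genes called lower were *TEX11* at 98.0 CPM and 260 CPM, *ZCWPW1* at 45.7 CPM and 199 CPM, and *MAEL* at 39.2 CPM and 171 CPM.

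Genes of differentiating spermatogonia and of the cell cycle were lower. Differentiation genes stood at 542 CPM (432 to 672) in SSC and 2885 CPM in SPG cells, and all 5 tested genes were lower in SSC, with a median log2 ratio of -2.43. *UCHL1*, the ubiquitin hydrolase used to mark SPG, stood at 281 CPM (203 to 378) against 1028 CPM (949 to 1111), and the transketolase gene *TKTL1* at 118 CPM against 419 CPM. The replication and cell cycle list stood at 967 CPM and 3439 CPM. Of its 9 tested genes 7 were lower and 0 higher, under the same count minimum and beside the same share. *TOP2A*, the topoisomerase of dividing cells, had 2 UMIs in SSC cells (13.1 CPM, 1.58 to 47.2) against 464 CPM in SPG. The kinetochore gene *CENPF* stood at 71.9 CPM against 1059 CPM, a log2 ratio of -3.79, and the histone methyltransferase gene *EZH2* at 19.6 CPM against 260.2 CPM.

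*WDHD1*, a replication factor, departed from its list. It stood at 405 CPM (311 to 519) in SSC and 398 CPM in SPG cells, a log2 ratio of 0.03, while EC-like cells stood at 14.7 CPM. Meiotic genes were lower in SSC as a list, at 549 CPM against 1400 CPM, with 4 of 5 tested genes lower, beside 19.5% of all tested genes. The synaptonemal gene *SYCP1* was still counted at 176 CPM in SSC, and at 3.25 CPM in EC-like cells.

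Endothelial genes were higher in SSC than in SPG cells. The pan-endothelial list (26 of 31 genes annotated) stood at 4024 CPM (3712 to 4355) in SSC against 928 CPM (853 to 1007) in SPG, and the log2 ratio was 2.12 (1.95 to 2.28). Of 8 tested members 6 were higher in SSC and 0 lower, beside 5.83% and 19.5% of all genes, and the median log2 ratio was 1.98. T/NK-like cells, at greater depth than SSC cells, stood at 232 CPM. The level in SSC cells was therefore well above that in T/NK-like cells, and the part of free RNA in it was not tested. *TAL1*, *PLVAP* and *SOX18* had no UMI in SSC cells.

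*PECAM1*, the platelet endothelial adhesion molecule, gave 29.4% of the SSC sum. It stood at 1182 CPM (1016 to 1368) in SSC, 160.0 CPM in SPG, 1072 CPM in EC-like and 2143 CPM in BMX-rich EC-like cells, so that SSC and EC-like cells overlapped in their intervals. After thinning, 62.3% of SSC and 13.5% of SPG cells had a UMI of *PECAM1*, against 82.8% of BMX-rich EC-like and 5.26% of T/NK-like cells. *TEK*, the angiopoietin receptor, stood at 235 CPM (165 to 326) in SSC and 24.2 CPM in SPG cells, a log2 ratio of 3.04. The hypoxia factor gene *EPAS1* stood at 594 CPM against 100.2 CPM, and the phosphatase gene *PTPRB* at 438 CPM against 58.2 CPM. Their EC-like levels were 122 CPM for *TEK*, 511 CPM for *EPAS1* and 659 CPM for *PTPRB*. In each of these 4 genes the SSC level was closer to that of EC-like cells than to that of SPG cells. Over the whole list, by the difference in CPM, 12 of 26 genes were nearer to EC-like and 14 nearer to SPG cells. *KDR*, the main VEGF receptor, at 65.3 CPM in SSC, 54.9 CPM in SPG and 424 CPM in EC-like cells, and *EMCN*, at 78.4 CPM, 71.1 CPM and 471 CPM, were among the latter. *ENG*, the endoglin gene, was also nearer to SPG cells in CPM, at 242 CPM in SSC, 90.5 CPM in SPG and 636 CPM in EC-like cells.

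The arterial list moved likewise, at 4370 CPM in SSC and 1120 CPM in SPG cells (log2 ratio 1.96, 1.81 to 2.12), with 5 of 8 tested genes higher and 0 lower and a median of 1.45. Without *FBLN2* and *BMX* the log2 ratio was 1.72 (1.55 to 1.89). *GJA5*, the gap junction protein of arteries, had 11 UMIs in SSC cells (71.9 CPM, 35.9 to 129) and none in SPG cells, so that SSC was at least 7.40-fold higher, from the lower end of its interval against a floor of 3 counts over the SPG group. The Wnt antagonist gene *DKK2* stood at 307 CPM (226 to 408) against 22.6 CPM, a log2 ratio of 3.50. Its next highest yak group was not endothelial but MC-like cells, at 167 CPM, and MC-like cells were its highest group in the cattle-yak, at 174 CPM. Venous genes showed no detectable difference, at 157 CPM (101 to 233) in SSC and 129 CPM in SPG cells. Neither did capillary genes, at 111 CPM and 71.1 CPM. Lymphatic genes were lower in SSC, at 124 CPM against 545 CPM, and both tested members were lower, beside 19.5% of all tested genes.

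**Figure D2:**
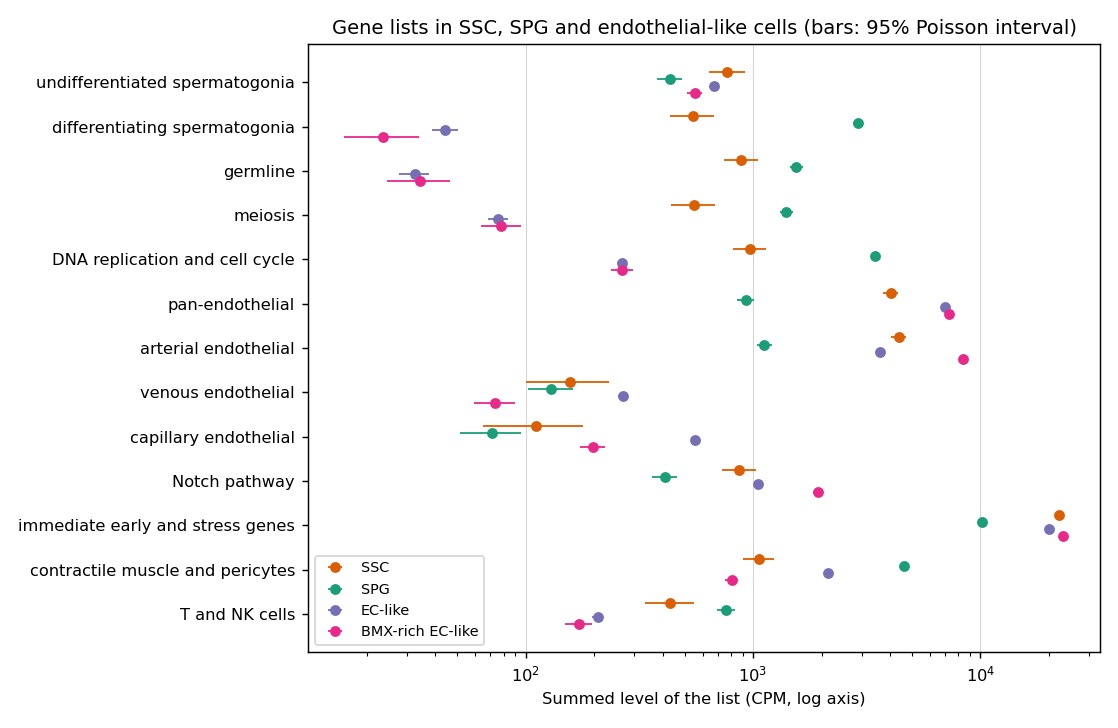
Summed level of gene lists in CPM on a log axis, in SSC, SPG, EC-like and BMX-rich EC-like cells of the yak, with exact Poisson 95% intervals that cover counting error only. SSC cells lie between SPG and EC-like cells for the pan-endothelial list (4024 CPM against 928 and 6976 CPM) and for the germline list (888 CPM against 1551 and 32.5 CPM).

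Among the 10 genes with the largest ratio of SSC to SPG, beside those already named, were *IER3*, an early response gene of cell survival, and *PLTP*, the phospholipid transfer protein. *IER3* stood at 2293 CPM (2059 to 2546) in SSC and 196 CPM in SPG cells, and *PLTP* at 588 CPM (473 to 723) and 48.5 CPM, log2 ratios of 3.52 and 3.47. The largest ratio, 3.88, counting only genes that were tested and present in 20% of SSC cells, belonged to ENSBGRG00000004627, a gene without a symbol in the annotation. The death ligand gene *TNFSF10*, the extracellular matrix gene *ADAMTSL5* and the actin-binding protein gene *LIMA1* followed with 2.93, 2.93 and 2.88. At the other end, *TOP2A*, *CENPF* and *EZH2* were among the 10 genes with the smallest ratios.

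Against EC-like cells, 6761 genes were tested, of which 719 (10.6%) were higher in SSC and 1046 (15.5%) lower, with a median log2 ratio of -0.02. The balance depended on the count minimum, since 2495 genes were higher and 1458 lower at a minimum of 1 count. The pan-endothelial list stood at 4024 CPM in SSC and 6976 CPM in EC-like cells, a log2 ratio of -0.79 (-0.91 to -0.68). Of 24 tested members 1 was higher in SSC, namely *NOS3*, the endothelial nitric oxide synthase, at 131 CPM against 42.6 CPM, and 13 were lower. *CDH5*, the cadherin of endothelial junctions, stood at 124 CPM in SSC and 445 CPM in EC-like cells, and *VWF*, the von Willebrand factor, at 144 CPM and 367 CPM. A core of endothelial identity genes was therefore present in SSC cells at a reduced and uneven level.

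The arterial list was the only endothelial list with a higher sum in SSC than in EC-like cells apart from the lymphatic one, at 4370 CPM against 3628 CPM (log2 ratio 0.27, 0.15 to 0.38). Of 21 tested genes 7 were higher and 2 lower, and their median was 0.04. The list holds *FBLN2* and *BMX*, which the study had selected on these cells. Without both, SSC stood at 3358 CPM and EC-like cells at 3477 CPM, a log2 ratio of -0.050 (-0.18 to 0.08), and 5 of 19 tested genes were higher, so that no excess was detectable without these genes. *LTBP4*, a TGF-beta binding protein of elastic fibres, led with 1163 CPM (998 to 1347) in SSC against 226 CPM, and stood higher in stromal-like cells, at 2519 CPM. The difference of *LTBP4* alone was larger than that of the whole list, which therefore rested on a few abundant genes. *SULF1*, a heparan sulfatase, stood at 150.2 CPM against 11.1 CPM. Without the more deeply counted SSC cells the sum was no longer higher than in EC-like cells, at a log2 ratio of -0.066. Capillary genes were lower, at 111 CPM against 555 CPM (log2 ratio -2.32), led by *CA4*, the capillary carbonic anhydrase, at 13.1 CPM against 387 CPM.

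Both basement membrane collagens of the list were low. *COL4A1* stood at 131 CPM in SSC, 322 CPM in SPG and 2276 CPM in EC-like cells, a log2 ratio of -4.07 to EC-like cells, and *COL4A2* at 26.1 CPM against 654 CPM. *TM4SF18*, a transmembrane protein gene, had no UMI in SSC cells and stood at 279 CPM in EC-like cells, so that SSC was at least 13.5-fold lower, from the lower end of the EC-like interval against 3 counts in SSC. In the same list *FBLN2*, *LTBP4* and *LTBP1* were higher, with log2 ratios of 3.08, 2.34 and 2.08, whereas the elastic fibre genes *FBN1* and *FBLN5* had ratios of -0.29 and 0.04. The list as a whole stood at 6245 CPM in SSC and 8837 CPM in EC-like cells, with 3 of 16 tested genes higher and 5 lower.

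Germ cell genes were among the 10 genes with the largest ratios of SSC over EC-like cells. *TEX15* had a log2 ratio of 4.74 and *UCHL1* one of 4.19, and the replication factor gene *WDHD1* one of 4.38. The germline list had a log2 ratio of 4.77 (4.44 to 5.11) and the differentiation list one of 3.62. Beside them in the leading 10 were *DKK2* (4.23), *PLTP* (4.18), *PTGS2* (3.55), the import receptor gene *TOMM34* (3.59) and *IL7R*, the interleukin-7 receptor of T cells. *IL7R* stood at 183 CPM in SSC, 5.35 CPM in EC-like and 434 CPM in T/NK-like cells. Over its 9 annotated genes, the list of T and NK cell genes stood at 431 CPM in SSC, 758 CPM in SPG, 207 CPM in EC-like and 8348 CPM in T/NK-like ones, with *CCL5* as its most abundant gene and *GZMA* without a UMI. The part of such RNA in the *IL7R* level was not tested.

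SSC cells were next compared with the BMX-rich EC-like sub-cluster, the group whose *BMX* level was closest to theirs. Of 3513 tested genes, 185 (5.27%) were higher in SSC and 556 (15.8%) lower, with a median log2 ratio of -0.16. Here too the balance turned at a minimum of 1 count, with 2161 higher and 1581 lower. At a log2 ratio of 2 the numbers were 31 and 125. Its own pan-endothelial and arterial sums were 7250 CPM and 8353 CPM, log2 ratios of SSC of -0.85 and -0.93. Of 22 tested pan-endothelial members 0 were higher and 8 lower in SSC, and of 19 arterial members 3 were higher and 9 lower. The higher ones were *DKK2*, *SULF1* and *FBLN2*. The 10 genes with the largest ratios to this sub-cluster again included *WDHD1* (4.38) and *UCHL1* (4.20), and also *PLTP* (2.67). *PTGS2*, at 2.24, was not among these 10.

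Individual endothelial genes did not keep one proportion between these cells and SSC cells. *TEK* stood at 235 CPM in SSC and 217 CPM in BMX-rich EC-like cells, *FN1* (fibronectin) at 751 CPM and 1020.5 CPM, and *PECAM1* at 1182 CPM and 2143 CPM. *CXCL12*, the chemokine of arterial endothelium, stood at 294 CPM and 2794 CPM, and the connexin gene *GJA4* at 137 CPM and 1022 CPM. The levels in SSC thus ran from about equal to far lower.

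For gene pairs chosen after their values were seen, *PECAM1* had 4.02 UMIs for each UMI of *CXCL12* in SSC cells (exact binomial interval 2.89 to 5.71). The ratio was 0.767 (0.729 to 0.807) in BMX-rich EC-like, 0.677 in EC-like, 1.04 in SPG and 1.63 (1.41 to 1.90) in T/NK-like cells. *BMX* had 1.33 UMIs for each UMI of *GJA4* in SSC cells (0.730 to 2.47), against 0.228 in BMX-rich EC-like and 0.0283 in T/NK-like cells. The pairs are a description only, and *BMX* had been selected by the study for its level in SSC cells. *PECAM1* to *CDH5* was 9.53 (5.93 to 16.2) in SSC, 4.09 in BMX-rich EC-like, 2.41 in EC-like and 7.66 (5.87 to 10.2) in T/NK-like cells. The SSC interval overlapped that of T/NK-like cells. T/NK-like cells did not hold these 2 genes at the proportion of EC-like cells, so no background value is taken from this pair. On the germ cell side, *WDHD1* had 1.44 UMIs for each UMI of *UCHL1* in SSC (0.962 to 2.18) and 0.387 (0.332 to 0.449) in SPG cells. The ratio was 1.38 (0.641 to 3.07) in BMX-rich EC-like, 1.38 (0.962 to 1.98) in EC-like and 0.908 (0.685 to 1.20) in T/NK-like cells, and these intervals overlapped that of SSC.

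A total of 2359 genes were tested against both SPG and EC-like cells. Of these, 25 were higher in SSC than in both, 51 were lower than in both, 53 were lower than in SPG and higher than in EC-like cells, and 11 were higher than in SPG and lower than in EC-like cells. Shared SSC counts enter both ratios, so the joint counts are given as a description only. A gene could pass the count minimum through a reference alone, since SPG (618792 UMIs) and EC-like cells (5236690 UMIs) held more UMIs than SSC cells (153082 UMIs). The filter thus favoured genes low in SSC, and the order of the classes is not read as a result.

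**Figure D3:**
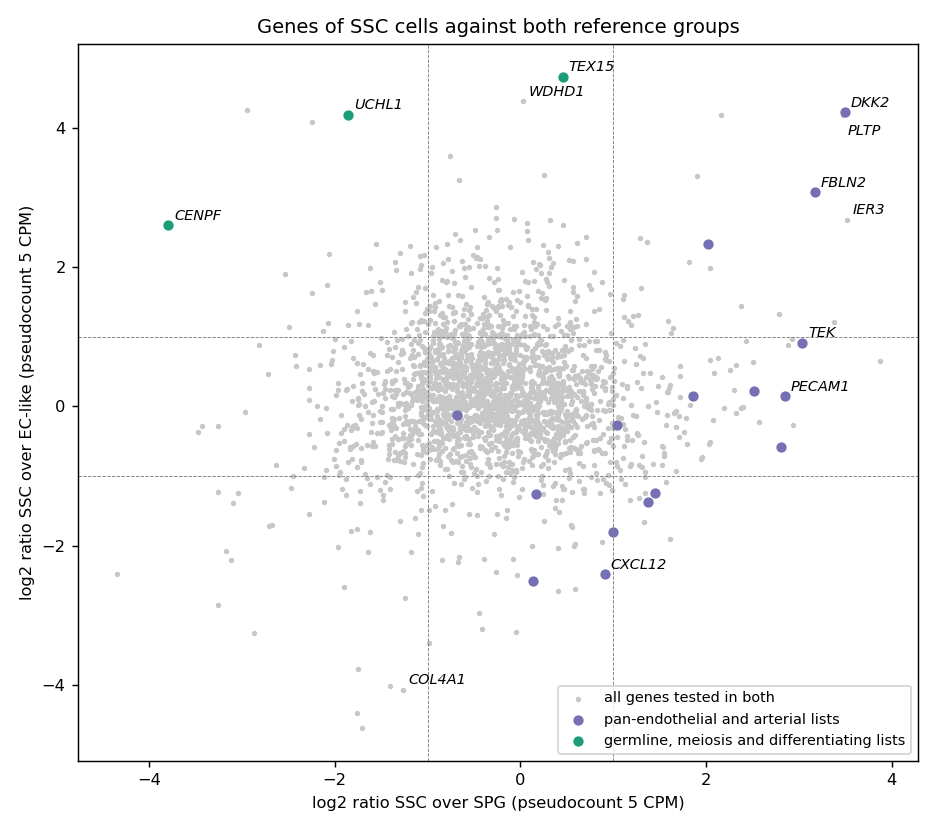
Log2 ratio of SSC to SPG (horizontal axis) against log2 ratio of SSC to EC-like cells (vertical axis), with 1 point for each of 2359 genes tested in both comparisons. Dashed lines mark a ratio of 1 on the log2 scale in either direction. *PLTP*, *FBLN2*, *DKK2* and *IER3* lie high on both axes, whereas *UCHL1* lies low against SPG (-1.85) and high against EC-like cells (4.19).

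The genes above both references were ranked by the smaller of their 2 ratios, among genes with 50 or more UMIs in SSC cells, and the first 10 were *PLTP*, *FBLN2*, *IER3*, *LTBP4*, *EMP3*, *PDCD4*, *SRPK2*, *ADAMTSL5*, *NR4A2* and ENSBGRG00000012704. SSC had the highest level of 19 yak groups for 5 of them, namely *PLTP*, *FBLN2*, *IER3*, *PDCD4* and ENSBGRG00000012704. *IER3* was next highest in macrophage-like cells, at 1608 CPM against 2293 CPM in SSC. *PLTP* was next highest in an unnamed cluster, at 509 CPM (422 to 609), an interval that overlapped that of SSC. In the SSC cells at or below the median UMI count *PLTP* stood lower than in this cluster, at 366 CPM (220 to 571). *PDCD4*, an inhibitor of translation, stood at 464 CPM in SSC and 447 CPM in BMX-rich EC-like cells. Among these 10 genes, *FBLN2* and *IER3* were the 2 whose SSC interval lay above that of every other yak group of 50 or more cells, and the others were matched or exceeded elsewhere.

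The whole profile was placed between both references with genes chosen without SSC cells. SPG and EC-like cells were each split at random into 2 equal parts. The first parts chose genes that differed between them by a log2 ratio of 2 or more, and the other parts gave the reference levels. The 327 EC-like-high genes stood at 46557 CPM in SSC, 19070 CPM in SPG and 97043 CPM in EC-like cells, so that SSC lay 35.3% (33.9% to 36.7%) of the way from SPG to EC-like cells. The 230 SPG-high genes stood at 24307 CPM, 60306 CPM and 7010 CPM, which put SSC 67.5% (66.1% to 69.0%) of the way. With BMX-rich EC-like cells as the far end, the positions were 44.8% over 245 genes and 69.2% over 159 genes. The summed level of SSC cells thus lay between both references on each gene set. Gene by gene, 159 of the 327 EC-like-high genes (48.6%) and 89 of the 230 SPG-high genes (38.7%) were nearer to the EC-like level. The shares were 59.6% and 39.6% with BMX-rich EC-like cells as the far end, so that the tally of genes and the summed levels, which a few abundant genes can carry, gave different orders.

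A correlation across genes gave a similar place. All groups were thinned to 112723 UMIs, and 8725 genes with a mean of at least 10 CPM were compared on the log2 scale, where counting noise and shared abundant genes hold every value up or down together. Pearson's r of SSC was 0.767 with BMX-rich EC-like cells, 0.751 with EC-like cells and 0.743 with SPG cells. The 2 random parts of the SPG cells had 0.840 and SPG against EC-like cells 0.646. By Spearman's rho the order of EC-like (0.716) and SPG cells (0.725) changed. A cluster of 611 unnamed cells, led by genes such as *PTPRB*, *FN1* and *EPAS1* and with a median of 991 UMIs, had 0.754. SSC cells were therefore about as close to endothelial groups as to SPG. Early-SPC, Late-SPC and SPT were farther, at 0.500, 0.474 and 0.405, and the germ-like cells without a type stood at 0.501. Other somatic groups lay closer than these, with 0.686 for MC-like, 0.671 for stromal-like, 0.653 for T/NK-like and 0.649 for macrophage-like cells. The distance to later germ cells is therefore not read as a result.

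Single SSC cells spread over the range between both references. For each cell, the share of its UMIs on the EC-like-high and on the SPG-high genes was computed. The EC-like-high share had a median of 4.29% in SSC cells (2.31% to 9.16%), 2.02% in SPG, 9.57% in EC-like and 1.17% in T/NK-like cells. The SPG-high share had a median of 2.41% in SSC cells (0.244% to 4.93%), 5.21% in SPG, 0.680% in EC-like and 2.32% in T/NK-like cells. The SSC median of the SPG-high share was close to that of lymphocytes, and the SSC median of the EC-like-high share was well above it. The unnamed cluster with *PTPRB* and *EPAS1* lay at nearly the same place as SSC cells, with medians of 4.08% (middle 50% of cells 2.92% to 5.48%) and 2.52% (1.89% to 3.26%), so the intermediate position was not particular to SSC cells. Of 84 SSC cells, 40 exceeded the 95th percentile of SPG in the EC-like-high share and 9 reached the 5th percentile of EC-like cells. For the SPG-high share, 65 exceeded the 95th percentile of EC-like cells and 24 reached the 5th percentile of SPG.

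Both at once, a share above the 95th percentile of the other reference on each axis, held for 22 of 84 SSC cells, 12 of 243 SPG cells and 20 of 456 EC-like cells. Each limit was taken from the SPG or EC-like cells counted here, so only a small part of either group could pass both. The low counts of these groups were therefore set by the rule and are no comparison with SSC cells. Across SSC cells, which share 1 library, the shares fell against each other with Spearman's rho of -0.62 (Pearson's r -0.53). The rho with the UMIs of the cell was 0.20 for the EC-like-high and 0.03 for the SPG-high share. SSC cells with more endothelial RNA thus had less SPG RNA, and depth followed neither share closely.

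**Figure D4:**
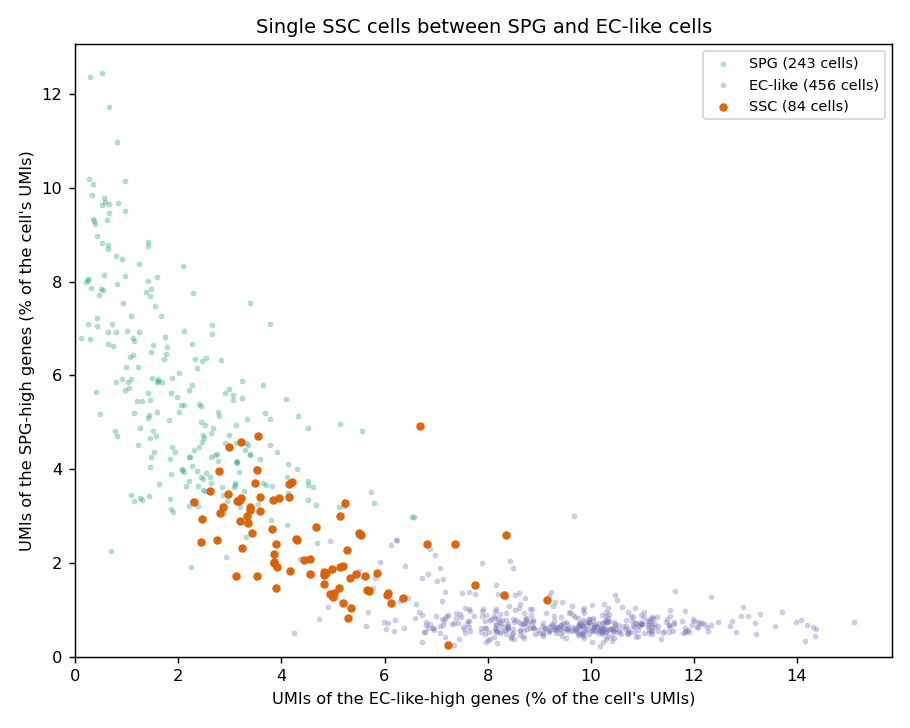
Share of a cell's UMIs on SPG-high genes against its share on EC-like-high genes, both in percent, with 1 point per cell for the 84 SSC cells, 243 SPG cells and 456 EC-like cells that did not choose the genes. SSC cells lie between both clouds, with a median of 4.29% on EC-like-high genes (SPG 2.02%, EC-like 9.57%). The unnamed cluster with *PTPRB* and *EPAS1*, not drawn, had a median of 4.08%.

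Cells with at least 1 UMI of each kind were counted with fixed lists, of 26 endothelial and 43 germ cell genes, after thinning to 1000 UMIs. Of 77 SSC cells, 73 (94.8%) had an endothelial UMI, 55 (71.4%) a germ cell UMI and 51 (66.2%, 54.6% to 76.6%) had both. The share with both was 47.3% in SPG cells, 11.6% in EC-like, 13.4% in BMX-rich EC-like and 3.08% in T/NK-like cells. None of the SSC cells had neither. In T/NK-like cells 16.5% had an endothelial UMI and 21.8% a germ cell UMI, so 1 UMI does not show a programme. Whether both kinds of RNA go together within single SSC cells was not tested. The unnamed cluster with *PTPRB* and *EPAS1* had both in 16.7% of 300 cells. Without thinning, 76.2% of SSC, 52.9% of SPG, 52.1% of BMX-rich EC-like and 11.3% of T/NK-like cells had both. SSC cells carried both kinds of RNA more often than any of these groups at equal depth. The doublet caller Scrublet called 0 doublets in the yak library and has not worked there, and 6 SSC cells (7.14%) were among the 10% of kept cells with the highest scores. SSC cells had fewer UMIs than EC-like cells and more than SPG cells (medians of 1605, 4586 and 979.5). The part of doublets was not tested beyond these values.

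A clustering of all kept yak cells, which used neither the types of the study nor the genes it names, placed 67 of 84 SSC cells (79.8%, 69.6% to 87.7%) in a germ-like cluster of 610 cells led by *UCHL1*, *WDHD1* and *TKTL1*. The same cluster held 413 of the SPG cells. Another 14 SSC cells (16.7%) fell into the unnamed cluster with *PTPRB* and *EPAS1*, 2 into the EC-like cluster and 1 elsewhere. The number in an EC-like cluster depended on the clustering, at 18 cells with a resolution of 0.5, 15 with 15 components and 22 when the genes named by the study were kept, where the germ-like clusters held 65, 59 and 60. The study had chosen SSC from its own germ cell clusters of the same counts, so that a place in a germ-like cluster was largely set by that choice and is a description of the cells.

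SSC cells inside and outside the germ-like cluster were then compared. Since expression formed that cluster and germ cell genes gave its name, their levels were set by the split. Germline genes summed to 1026 CPM (859 to 1216) in the 67 cells and to 128 CPM (26.3 to 373) in the 17 others, and *WDHD1* stood at 478 CPM and at no UMI, which allows up to 128 CPM. The endothelial list differed little, at 3975 CPM (3639 to 4333) and 4296 CPM (3499.5 to 5221). *BMX* stood at 162 CPM (100.3 to 248) and 298 CPM (120 to 614), *FBLN2* at 864 CPM and 638 CPM, and *PTGS2* at 193 CPM and 85.1 CPM, with overlapping intervals. The endothelial RNA was therefore present in SSC cells that clustered with germ cells as well as in the others.

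SSC cells also differed with their depth. In the 42 cells at or below the median UMI count, *PTGS2* stood at 77.0 CPM (21.0 to 197, from 4 UMIs) and *PLTP* at 366 CPM (220 to 571). There *PECAM1* stood at 789 CPM (566 to 1071) and the pan-endothelial list at 3350 CPM (2870 to 3886). In the 42 deeper cells they stood at 227 CPM (144 to 341), 702 CPM (548 to 886), 1384 CPM (1164 to 1634) and 4370 CPM (3972 to 4797). The intervals of *PTGS2* and of *PLTP* overlapped, and those of *PECAM1* and of the list did not. The germline list was about equal, at 866 CPM and 899.8 CPM, and so was *BMX*, at 173 CPM and 188 CPM.

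Genes of the prostaglandin pathway were, as a sum, higher in SSC than in either reference. Of the 14 annotated genes of prostaglandin synthesis and reception, *PTGS2* and *PTGIS*, the prostacyclin synthase, were the only ones with more than 3 UMIs in SSC cells, at 176 CPM and 118 CPM, and the list stood at 333 CPM in SSC against 35.6 CPM in SPG and 54.6 CPM in EC-like cells. No prostaglandin receptor gene had more than 2 UMIs. Of the 14 genes, 9 had no UMI in SSC cells, and *PTGS2*, which the study had selected, was 52.9% of the SSC sum. Without *PTGS2* the list stood at 157 CPM in SSC, 33.9 CPM in SPG and 44.1 CPM in EC-like cells, a log2 ratio of 2.21 over SPG and of 1.83 (1.16 to 2.44) over EC-like cells, and *PTGIS* was then its main gene in SSC cells.

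Notch genes stood at 869 CPM in SSC, 409 CPM in SPG, 1048 CPM in EC-like and 1920 CPM in BMX-rich EC-like cells. The ligand genes *JAG2* and *JAG1* led, at 307 CPM and 189 CPM in SSC, and 2 of 3 tested genes were higher than in SPG cells. ID proteins and BMP signalling, in which ID genes are targets, stood at 2169 CPM in SSC, 721 CPM in SPG and 2404 CPM in EC-like cells. *ID1* stood at 777 CPM in SSC and 145 CPM in SPG cells, and the inhibitory *SMAD6* at 131 CPM in SSC against 17.2 CPM in EC-like cells. VEGF and angiopoietin genes stood at 464 CPM, 242 CPM and 787 CPM, with *TEK* as 50.7% of the SSC sum. The Notch sum, at a log2 ratio of -0.27 (-0.53 to -0.02) to EC-like cells, and the VEGF and angiopoietin sum, at -0.76 (-1.12 to -0.42), lay between SPG and EC-like cells. For ID proteins and BMP signalling the log2 ratio to EC-like cells was -0.15 (-0.31 to 0.01), an interval that includes 0, so these counts did not separate the groups.

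Immediate early and stress genes, which respond to tissue dissociation, were also higher in SSC than in SPG cells, at 22125 CPM against 10118 CPM, with 8 of 14 tested genes higher and 0 lower (median log2 ratio 1.13). EC-like cells stood at 20025 CPM and T/NK-like cells at 12301 CPM. *JUN* stood at 5089 CPM in SSC and 1705 CPM in SPG cells, and *KLF2*, a flow-responsive endothelial factor, at 3129 CPM and 1042 CPM. *IER3* and *PTGS2* are themselves early response genes, and the part of such a response in their levels was not tested.

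Markers of other testis cells differed in direction. Contractile muscle and pericyte genes stood at 1058 CPM (902 to 1234) in SSC against 4607 CPM in SPG and 2140 CPM in EC-like cells. All 7 tested genes were lower than in SPG, beside 19.5% of all tested genes. *MYH11*, a smooth muscle myosin, stood at 294 CPM and 1265 CPM, and *KCNJ8*, *ABCC9*, *NOTCH3* and *CSPG4* had no UMI in SSC cells. Stroma genes stood at 758 CPM against 1227 CPM, with *MGP* as 49.1% of the SSC sum and *LUM*, *DPT* and *MFAP5* at 0. They were higher in SSC than in EC-like cells (148 CPM, log2 ratio 2.36, 4 of 4 tested genes higher) and than in BMX-rich EC-like cells (193 CPM, log2 ratio 1.97). Under the alternatives the log2 ratio to EC-like cells ran from 0.69 to 2.49. *MYH11* and *ACTA2* were also higher than in EC-like cells, with log2 ratios of 1.74 and 1.63. The part of such RNA in the differences from EC-like cells was not tested. The 9 macrophage genes had 10 UMIs in SSC cells (65.3 CPM, 31.3 to 120.1). Their log2 ratio was 1.36 (0.27 to 2.29) to EC-like and 1.63 (0.41 to 2.73) to BMX-rich EC-like cells. *CSF1R* and *MSR1*, with 2 UMIs each (13.1 CPM), were second highest in SSC of 19 yak groups. The complement genes of the list, *C1QA*, *C1QB* and *C1QC*, were at 0. *PTGS2* and *IER3* reached or passed their macrophage-like level in SSC cells, and the part of macrophage RNA was not tested. Sertoli cell genes were higher in SSC than in SPG cells, at 281 CPM against 126 CPM (log2 ratio 1.16, 0.58 to 1.71), and stood at 287 CPM in EC-like cells. *SOX9*, the leading gene, stood at 91.5 CPM in SSC, from 14 UMIs. The neighbouring groups were an unnamed cluster at 131 CPM and stromal-like cells at 70.2 CPM. *WT1* went the other way, at 32.7 CPM in SSC, 63.0 CPM in SPG and 151 CPM in EC-like cells. *INHA*, *GATA4*, *FSHR* and *SOX8* were at 0. Spermatid genes stood at 183 CPM and 265 CPM, and Leydig cell genes at 58.8 CPM and 187 CPM, with *DLK1* as 88.9% of the SSC sum.

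No SSC type was given for the cattle-yak library, and its cells were used only for the endothelial markers. Its own BMX-rich EC-like group, of 172 cells, was a whole cluster and not a sub-cluster, picked among its EC-like clusters for the highest *BMX* level. This group stood at 149 CPM (126 to 176) for *BMX*, 34.7 CPM for *PTGS2* and 175 CPM (150 to 204) for *FBLN2*. *BMX* was 2.11 CPM in its other EC-like cells. The marker *BMX* was thus counted in an endothelial-like group of both libraries, and each group had been picked for this gene. *PTGS2* and *FBLN2* were lower in that of the cattle-yak than in the SSC cells of the yak. Each library is 1 animal, and these values compare the libraries and not the crosses.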

How the data were processed

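Libraries were made from testis cells of 1 yak and 1 cattle-yak, and per the file headers the authors deposited whole-number UMI counts for every gene in every barcode, without normalization, for 26961 genes of the yak annotation BosGru3.0. The submitters' processing notes name Cell Ranger 2.1.1 and the matrix header 5.0.0. The yak library held 60816600 UMIs in 11991 cells and the cattle-yak library 43774841 UMIs in 8930 cells.

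Cells whose genes and UMIs lay within 2 SD of the library mean and that were below a mitochondrial share of 30% were kept, which left 10324 yak and 7092 cattle-yak cells. The study states fewer retained yak cells. Types came from the study's list of germ cell barcodes. Kept cells were clustered with scanpy 1.11.5 and leidenalg 0.10.2 (igraph 0.11.9) under Python 3.11.15, on 2000 variable genes without those the study names, 30 components, 15 neighbours and a resolution of 1, giving 21 yak and 24 cattle-yak clusters. A name needed 3 markers of its list enriched by a log2 ratio of 1 and present in 10% of cells, and, chosen after the data were seen, at least 50 cells. Types of the study may be divided differently from these rebuilt names. EC-like cells of the yak were divided again at a resolution of 0.5 into 5 sub-clusters. The BMX-rich EC-like group of the cattle-yak was a whole cluster. No cell was removed as a doublet.

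Counts were summed per group and scaled to CPM. Ratios used a pseudocount of 5 CPM and genes with at least 50 counts over both groups. Ratios of the marker genes and lists had exact conditional binomial intervals and no pseudocount. No significance test was run, since cells of 1 animal are not replicates, and all intervals cover counting error only. Alternatives changed the pseudocount, count minimum, fold, CPM denominator, weight of each cell, thinning depth, clustering, SSC cells used and list genes. Of 400 genes in 25 lists, 323 have a symbol in the annotation, and *DDX4*, *DAZL*, *SOX17*, *DLL4* and *STRA8* do not. Named genes were those the study names, the 10 with the largest and smallest ratio in each comparison, the 10 highest above both references and the 4 most abundant members of each list. Not every one is described, and further members were chosen after their values were seen. The members and lists were chosen with earlier results of these data known. The reads and the protein stainings were not analysed here. The result of 1 gene list is not reported here.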

Additional observations from a re-analysis of the deposited data

How the results depend on the processing

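No paired analysis was possible because each library is 1 animal and no value comes from a test. Of 470 alternative values of 74 results, 365 moved by less than their counting interval or by less than 1.5 times for counts of genes, 102 moved further and 3 reversed. With only the SSC cells at or below the median UMI count, chosen after seeing the data, the log2 ratio of the arterial list to EC-like cells reversed from 0.27 to -0.066 and that of immediate early genes from 0.14 to -0.044, and the cause was not tested. The arterial list without *BMX* and *FBLN2*, also chosen after seeing the data, had log2 ratios of 1.72 to SPG and -0.050 to EC-like cells. In these shallower cells the log2 ratios of *PTGS2* were 2.87 to EC-like and 1.21 to BMX-rich EC-like cells, those of *FBLN2* 2.80 and 0.84, those of the pan-endothelial list 1.85 to SPG and -1.06 to EC-like cells, and that of the arterial list to SPG 1.63. The position on EC-like-high genes was 29.3%, and 1965 genes were lower than in EC-like cells.

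The numbers of called genes followed the thresholds by construction. Higher and lower than SPG were 345 and 1028 genes at a minimum of 20 counts, 1479 and 2472 at 1 count, and 34 and 87 at a log2 ratio of 2. Higher and lower than EC-like cells were 1184 and 1458 genes at 20 counts, and 2495 and 1458 at 1 count, where the balance turned. They were 325 and 434 at a pseudocount of 20 CPM and 95 and 291 at a log2 ratio of 2. Equal weights for all cells gave log2 ratios to EC-like cells of 3.07 for differentiation genes and 0.13 for arterial genes, ratios to SPG of 1.82 for pan-endothelial and 1.74 for arterial genes, and positions of 33.0% and 65.8% on EC-like-high and SPG-high genes. With EC-like cells from a resolution of 0.5, the ratios were 3.21 for differentiation, 4.20 for germline and -0.67 for pan-endothelial genes, and the positions 41.0% and 69.0%.

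The position on EC-like-high genes was 45.0% and 37.2% with genes chosen at a log2 ratio of 1 and 3, 38.3% with the parts swapped, 33.2% without the 10% highest Scrublet scores and 32.8% with only the SSC cells in germ-like clusters. On SPG-high genes it was 64.3% and 74.0% at those ratios, 65.1% without mitochondrial and rRNA-like features and 64.4% for the SSC cells in germ-like clusters. Pearson's r with SPG, EC-like and BMX-rich EC-like cells was 0.656, 0.666 and 0.686 at a pseudocount of 1 CPM and 0.803, 0.815 and 0.828 at 20 CPM, and 0.806 with EC-like cells without thinning. SSC cells with both kinds of RNA were 44.0% at 500 UMIs. With 1000 variable genes, 52 SSC cells fell into germ-like clusters. At this depth 1 UMI in SSC cells is worth 6.53 CPM, so genes of a few UMIs could not be ordered.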
